A study of Homo sapiens with 18 samples.

Results

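The effect of ASAP1 silencing on the transcriptome of BT549 cells was followed in 6 TempO-Seq libraries, 3 from cells transfected with siASAP1 and 3 from cells transfected with siCtrl. Of the 21111 probes in the table, 9666 probes for 9123 gene symbols were kept, namely all with a mean normalised count of at least 10 over the 6 libraries. BT549 is an established human breast cancer cell line of the TNBC type. TempO-Seq counts ligated pairs of detector oligonucleotides, and each probe covers part of 1 transcript. siASAP1 was a SMARTpool, a mix of single siRNAs against ASAP1, siCtrl was, by the study's methods, a pool of kinase siRNAs, and all cells received 50 nM siRNA and were lysed 72 h later. BT549 is a single cell line, and the study describes the replicates as biological triplicates. The whole series held 18 libraries from 3 cell lines.

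ASAP1 encodes an Arf GTPase-activating protein that acts in membrane trafficking and at focal adhesions and invadopodia, where cells attach to and degrade matrix. NF-kB is a family of dimeric transcription factors that are held inactive in the cytoplasm until cytokine or stress signals release them. Their targets include neutrophil-attracting CXC chemokines, IL6, adhesion receptors, survival genes such as BIRC3, and subunits of NF-kB itself.

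The 12 probes that rose with the smallest p in BT549 were taken among those whose groups did not overlap. Of these 12, 8 were for listed chemokines or NF-kB regulators and targets. These lists hold 4 and 23 of the 9666 probes tested. They were chosen with earlier results of these data known, so this count is a description only. CXCL1, CXCL2, CXCL5 and CXCL8, the 4 chemokine genes with measurable expression, all rose. Since cells were lysed in bulk, a change per cell and a change in the share of cells cannot be told apart. The promoter stretches before the start sites of these 4 genes are shown because they share a motif. The sequences are from RefSeq (GRCh38.p14), written 5′ to 3′ on the gene's strand and ending at the base before the start site. Capitals mark GGAATTTCC, a motif of the kB kind, searched together with its reverse complement GGAAATTCC.
CXCL1 (chr4:73869293-73869392, plus strand): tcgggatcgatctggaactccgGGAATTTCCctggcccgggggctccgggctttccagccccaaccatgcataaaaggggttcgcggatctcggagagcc
CXCL2 (chr4:74099196-74099295, minus strand): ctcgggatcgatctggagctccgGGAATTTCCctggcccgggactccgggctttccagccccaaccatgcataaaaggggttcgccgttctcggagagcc
CXCL5 (chr4:73998678-73998777, minus strand): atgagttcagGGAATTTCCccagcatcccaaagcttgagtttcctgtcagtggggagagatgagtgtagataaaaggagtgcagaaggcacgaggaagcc
CXCL8 (chr4:73740469-73740568, plus strand): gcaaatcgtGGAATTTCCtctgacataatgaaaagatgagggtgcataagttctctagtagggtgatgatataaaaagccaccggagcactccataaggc
All 4 genes lie on chromosome 4. The motif began 78, 77, 90 and 91 bases before the start of CXCL1, CXCL2, CXCL5 and CXCL8, in the same orientation in each, and the CXCL1 and CXCL2 stretches are alike over most of their length. Within 250 bases before the start, the motif was found in 145 of 35116 promoters (0.413%). ICAM1, which encodes an adhesion receptor for leukocytes and also rose, held its reverse complement on the strand printed, beginning 186 bases before its start.
ICAM1 (chr19:10270920-10271119, plus strand): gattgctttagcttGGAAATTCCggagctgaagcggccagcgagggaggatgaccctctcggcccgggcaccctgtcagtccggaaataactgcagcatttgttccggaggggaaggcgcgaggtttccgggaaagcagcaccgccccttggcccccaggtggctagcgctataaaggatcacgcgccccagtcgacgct
The looser motif GGANTTTCC, searched with its reverse complement GGAAANTCC and including every match of GGAATTTCC, also occurred before IL6 and NFKB2. Of the 15 genes of the chemokine, interleukin and NF-kB lists that rose, 12 had a promoter in the table and 7 of these (58.3%) held GGANTTTCC. RELB, IER3 and NFKBIE were the other 3. The motif was found in 15 of 245 promoters of all genes that rose (6.12%), in 5 of 265 of those that fell (1.89%) and in 151 of 7151 of all genes tested (2.11%). The 15 promoters include the 7 of these lists, so that share is not a separate result. Among the 12 promoters were those of NFKB2 and IL12A, which were kept through their siASAP1 counts alone. The NF-kB list was itself written from known targets, and a match is not evidence of binding.

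The libraries did not separate cleanly by treatment. They held between 5.76 and 9.46 M reads and between 11079 and 12903 detected probes, and exact permutation tests between the groups gave a two-sided p of 0.4 and 1 (the smallest possible with 3 against 3 is 0.1). Within each group, no pair of replicates was alike within the sampling noise of counts, which says nothing about treatment. ASAP1 itself had normalised counts of 367, 729.7 and 783 after siASAP1 and 1107, 966 and 944 after siCtrl. The siASAP1 libraries thus held 36.5%, 72.5% and 77.8% of the siCtrl mean, all 3 below the lowest siCtrl library, and the exact permutation p was 0.1 (two-sided). The Log2 FC of -0.75 ± 0.39 (SE) had an adjusted limma p of 0.647 and was within the 2-fold limit used here for calls. Leaving out siASAP1 replicate 1 brought it to -0.41. Across the 9666 probes, siASAP1 replicate 1 had log2 values closer to siCtrl replicates 2 and 3 (Pearson's r across probes 0.942 and 0.940) than to siASAP1 replicates 2 and 3 (0.835 and 0.784), although its ASAP1 was the lowest. On the first principal component, which carried 44.1% of the variance, siASAP1 replicates 2 and 3 scored 59.4 and 104 and the other 4 libraries between -48.2 and -33.3. The second component (30.9%) set siCtrl replicate 1 apart with a score of -90.8. Each comparison was therefore also made without each library.

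**Figure D1:**
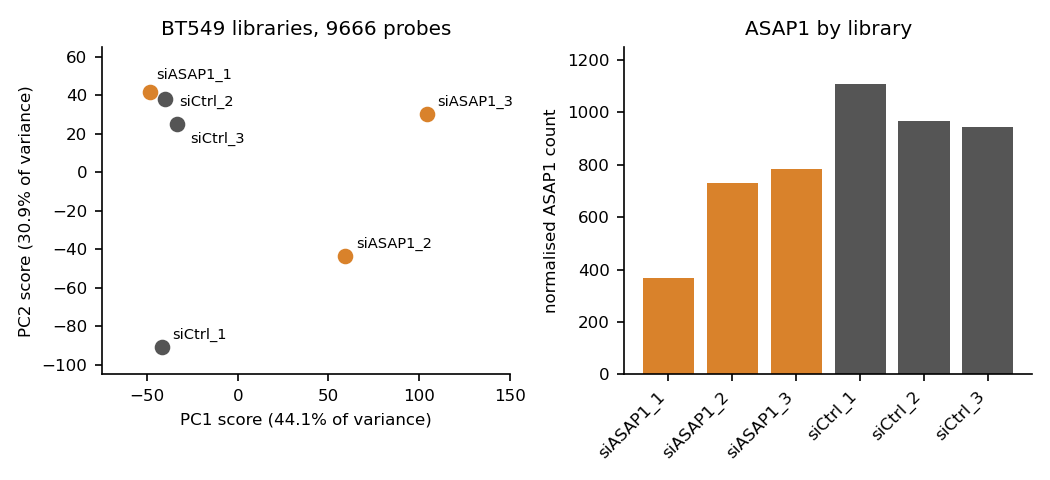
The left panel plots the 6 BT549 libraries on the first 2 principal components of the log2 values (scores, with the share of variance on each axis), and the right panel plots the normalised ASAP1 count of each library as a bar. siASAP1 replicate 1 lies beside siCtrl replicates 2 and 3 while its ASAP1 count of 367 is the lowest of the 6.

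A probe was called where the unadjusted limma p was under 0.05 and the absolute Log2 FC over 1, and only called probes are said here to have risen or fallen. Of the 9666 probes, 317 rose (3.28%) and 357 fell (3.69%), and the median Log2 FC of all probes was -0.00153. The unadjusted p was under 0.05 for 754 probes (7.80%), and the adjusted p was under 0.05 for 0 of them, with 0.0543 as the smallest. Other settings over the 6 libraries gave 0 to 9 adjusted calls (8 with voom weights on the recovered reads), and a fit with all 18 libraries gave 22. Every rise or fall in BT549 described below therefore rests on a call that did not pass the adjustment. Without siASAP1 replicate 1, 899 probes rose (9.30%), 1277 fell (13.2%) and 526 had an adjusted p under 0.05. Of the probes called over all 6 libraries, 295 of the 317 and 324 of the 357 were also called without that replicate. Calls in all 6 leave-one-out fits numbered 87 up and 102 down. The libraries of both groups did not overlap for 710 probes that were higher (7.35%) and 629 that were lower (6.51%) after siASAP1. Of the 317 that rose, 260 also had a mean of at least 10 in the siCtrl libraries. The other 57 passed the filter on low counts through the siASAP1 libraries alone.

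**Figure D2:**
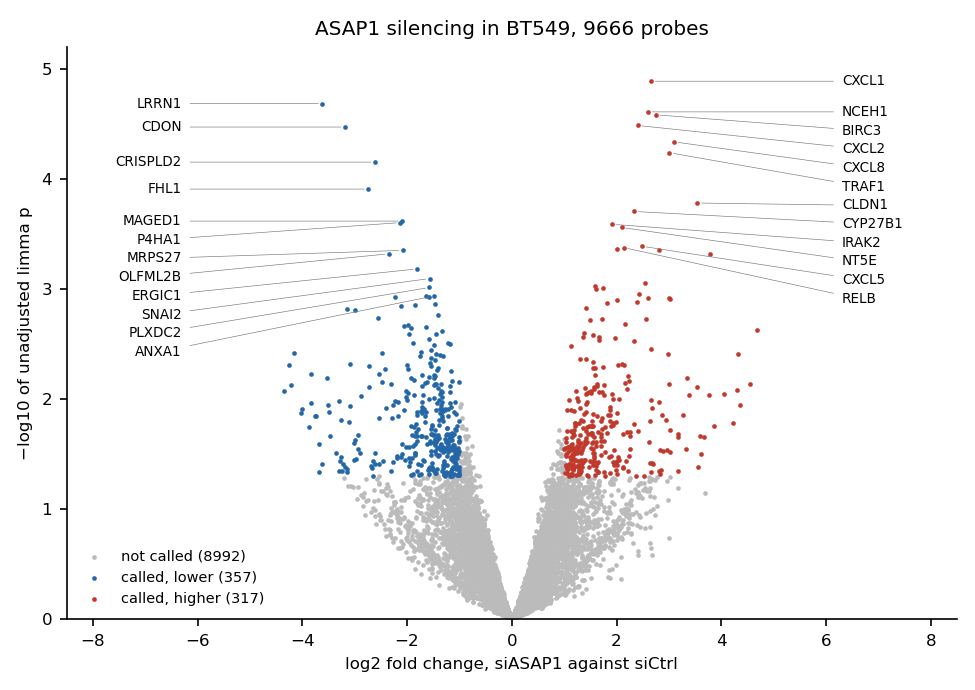
Each point is 1 of 9666 probes, with the Log2 FC of siASAP1 against siCtrl on the x axis and −log10 of the unadjusted limma p on the y axis. Red marks the 317 probes that rose, blue the 357 that fell, and the names are the 12 non-overlapping probes with the smallest p in each direction, led by CXCL1 and LRRN1.

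The 12 leading probes in each direction were chosen for groups that do not overlap, so that their separation is a description. CXCL1, a chemoattractant of neutrophils, had normalised counts of 5909, 8453 and 8043 after siASAP1 and 1662, 956 and 993 after siCtrl (Log2 FC 2.66 ± 0.35 (SE), limma, adjusted p = 0.0543). The lowest siASAP1 library was more than 3 times the highest siCtrl library. CXCL2 counts were 1105, 1274 and 1169.8 after siASAP1 and 262, 206 and 203 after siCtrl (Log2 FC 2.41 ± 0.35 (SE), limma, adjusted p = 0.0543). The siASAP1 replicates of CXCL2 lay close together and the groups were far apart at this probe. A second probe of CXCL2 was under the filter, with at most 3 reads in a library. CXCL8, which encodes interleukin-8, had counts of 2146, 2131 and 1786 after siASAP1 and 489, 167 and 156 after siCtrl (Log2 FC 3.10 ± 0.47 (SE), limma, adjusted p = 0.0635). CXCL5 counts were 251, 554 and 731 after siASAP1 and 111, 66.7 and 75.1 after siCtrl (Log2 FC 2.49 ± 0.49 (SE), limma, adjusted p = 0.201), with the lowest siASAP1 value in replicate 1. The calls of all 4 chemokines were kept in each of the 6 leave-one-out fits. CXCL1 and CXCL2 are close paralogs whose probe sequences are not used here, so reads shared between them cannot be told apart. Of the 24 chemokine genes in the table, the other 20 were under the filter, and the probe of CXCL3 had 0 reads in all 6 libraries.

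IL6, the pleiotropic inflammatory cytokine, had counts of 60.4, 50.0 and 58.4 after siASAP1 and 1.25, 20.1 and 14.0 after siCtrl (Log2 FC 2.68 ± 0.89 (SE), limma, adjusted p = 0.55). Its groups did not overlap, but both were near the lower end of the measurable range. IL12A, a subunit of interleukin-12, also rose, with counts of 15.1, 11.3 and 49.3 after siASAP1 and 0, 3.14 and 3.51 after siCtrl. It passed the filter through its siASAP1 libraries alone. Of the 23 interleukin and colony-stimulating factor genes in the table, 4 were tested. Of these, 2 rose (50%, against 3.28% of all probes) and 0 fell, and 1 rose without siCtrl replicate 1. C3 and IL1B stayed under the filter, with at most 7 and 6 reads in any BT549 library.

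Several regulators and targets of NF-kB also rose. Of the 30 listed genes that have a probe, 22 were tested with 23 probes, and 9 probes rose and 0 fell (39.1% risen, against 3.28% of all probes). The median Log2 FC of the list was 0.97. BIRC3, an inhibitor of apoptosis that binds TRAF proteins, had counts of 3474, 1706 and 1659.9 after siASAP1 and 327, 304 and 319 after siCtrl (Log2 FC 2.75 ± 0.39 (SE), limma, adjusted p = 0.0543). Its highest value was in siASAP1 replicate 1. TRAF1, an adaptor of TNF receptors, had 893, 657 and 1277 after siASAP1 and 69.9, 185 and 109 after siCtrl (Log2 FC 3.01 ± 0.47 (SE), limma, adjusted p = 0.0697). IRAK2, a kinase of the interleukin-1 and Toll receptor pathway, had 688, 838 and 704 after siASAP1 and 187, 186 and 214 after siCtrl (Log2 FC 1.92 ± 0.36 (SE), limma, adjusted p = 0.166). RELB, an NF-kB subunit of the non-canonical pathway, had 261, 196 and 299 after siASAP1 and 48.7, 62.3 and 57.5 after siCtrl (Log2 FC 2.13 ± 0.42 (SE), limma, adjusted p = 0.201). These 4 are also among the leading probes, chosen for not overlapping, and the siCtrl libraries were within 3-fold of each other in each. The other members that rose were CD83 (Log2 FC 1.73), ICAM1 (2.39), NFKB2 (4.31), IER3 (1.70) and NFKBIE (3.56), and NFKB2 and NFKBIE passed the filter through the siASAP1 libraries alone. NFKB1, whose product is a subunit of the canonical dimer, had 127, 196 and 115 after siASAP1 and 139.8, 87.4 and 77.9 after siCtrl (Log2 FC 0.53 ± 0.46, SE) and was not called. NFKBIA and TNFAIP3, which encode inhibitors of the pathway, had means under the filter, with at most 23 and 3 reads in a library.

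The shift of the NF-kB list was of similar size in every siASAP1 library. Its average includes NFKB2 and NFKBIE, whose Log2 FC of 4.31 and 3.56 lay well above the list median of 0.97. Both passed the filter through the siASAP1 libraries alone and raised the average, and the shift without them was not tested. Averaged over the 23 probes, log2 values were above the siCtrl mean by 1.37, 1.02 and 1.31 in siASAP1 replicates 1, 2 and 3. For the 4 chemokines the same difference was 2.36, 2.82 and 2.81. siASAP1 replicate 1, which lay beside siCtrl replicates 2 and 3 in the principal components, was not the lowest of the 3 for the NF-kB list and was for the chemokines.

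**Figure D3:**
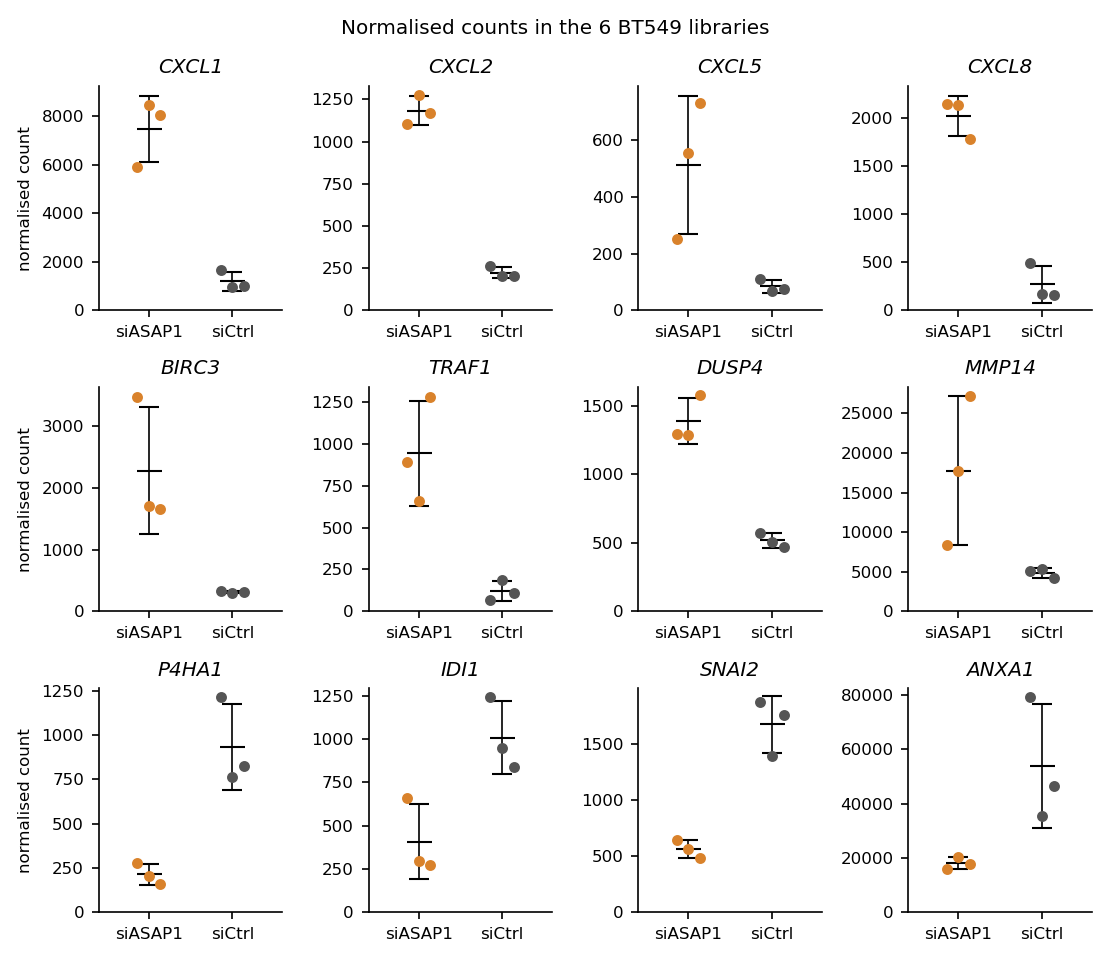
Normalised counts of 12 genes in the 6 BT549 libraries, with a point for each library and a bar for the mean ± SD of 3 libraries per group. In the first 8 genes, from CXCL1 to MMP14, all siASAP1 libraries lie above all siCtrl libraries, and in P4HA1, IDI1, SNAI2 and ANXA1 all lie below.

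Several receptors of the TNF superfamily and early response genes also rose. TNFRSF1B, the second TNF receptor, rose at both of its probes, with counts of 43.6, 61.4 and 55.7 after siASAP1 and 18.7, 10.1 and 7.01 after siCtrl at the probe with more siCtrl reads (Log2 FC 2.16 ± 0.65, SE). Its other probe passed the filter through the siASAP1 libraries alone. The TRAIL receptors TNFRSF10A (Log2 FC 1.97) and TNFRSF10B (1.15 and 1.19 at its 2 probes) rose, and TNFRSF19 fell (-1.07). Of 13 probes for the superfamily, 5 rose (38.5%, against 3.28% of all probes) and 1 fell, and 3 rose when siASAP1 replicate 2, siASAP1 replicate 3, siCtrl replicate 2 or siCtrl replicate 3 was left out. Among AP-1 subunits, immediate early genes and dual-specificity phosphatases (DUSPs), 12 of 34 probes rose (35.3%) and 1 fell, with a median Log2 FC of 0.97. DUSP4 and DUSP6 encode phosphatases that are induced by ERK signalling and switch MAP kinases off. DUSP4 had 1293, 1284 and 1579.6 after siASAP1 and 573, 508 and 470.0 after siCtrl (Log2 FC 1.42 ± 0.33 (SE), limma, adjusted p = 0.316). DUSP6 had 32.9, 61.4 and 99.5 after siASAP1 and 11.2, 10.7 and 4.91 after siCtrl (Log2 FC 2.66 ± 0.71 (SE), limma, adjusted p = 0.451). The DUSP4 replicates were tight in both groups, while DUSP6 counts were low and passed the filter through the siASAP1 libraries alone. DUSP5 (1.55), DUSP10 (3.03), the factors KLF2 (1.42) and KLF4 (1.28), MAFF (1.47 and 3.18 at its 2 probes), IER2 (1.18), IER5 (1.54), and the AP-1 subunits FOSL1 (1.33) and JUN (1.65) also had a Log2 FC past the limits, and DUSP14 fell (-1.32). The number of rises in this list came to 5 without siASAP1 replicate 2, to 4 without siASAP1 replicate 3 and to 7 without siCtrl replicate 2.

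Some proteases and their regulators at the cell surface rose. Of 9 probes for matrix metalloproteinases and their inhibitors, 3 rose (33.3%, against 3.28% of all probes) and 0 fell. MMP14, a membrane-anchored collagenase that is central to invadopodia, had 8384, 17681 and 27181 after siASAP1 and 5084, 5351 and 4204 after siCtrl (Log2 FC 1.71 ± 0.42 (SE), limma, adjusted p = 0.354). MMP1 had 689.8, 1504 and 2798 after siASAP1 and 752, 143 and 263 after siCtrl (Log2 FC 2.22 ± 0.65 (SE), limma, adjusted p = 0.523). The groups of MMP14 were separate but its siASAP1 libraries spread over 3-fold, and for MMP1 siCtrl replicate 1 was above siASAP1 replicate 1. MMP3 had 165, 225 and 543 after siASAP1 and 105, 47.8 and 152 after siCtrl (Log2 FC 1.56). Of 11 probes for plasminogen activation 3 rose (27.3%), and 1 without siASAP1 replicate 2. Both probes of PLAUR, the urokinase receptor, were among them (Log2 FC 1.13 and 1.90).

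Genes of the same 12 leading probes that belong to none of these groups had comparable sizes. NCEH1, a hydrolase of neutral cholesterol esters, had 1769.8, 2753 and 3059 after siASAP1 and 500.4, 345 and 382 after siCtrl (Log2 FC 2.60 ± 0.37 (SE), limma, adjusted p = 0.0543). CLDN1, a tight-junction claudin, had 217, 352 and 355 after siASAP1 and 8.73, 42.1 and 40.0 after siCtrl (Log2 FC 3.55 ± 0.62 (SE), limma, adjusted p = 0.145). Its lowest siASAP1 value was about 5 times its highest siCtrl value. CYP27B1, the enzyme that makes active vitamin D, had 367, 266 and 471 after siASAP1 and 58.6, 78.6 and 74.4 after siCtrl (Log2 FC 2.34 ± 0.42 (SE), limma, adjusted p = 0.159). NT5E, the ectonucleotidase CD73 that forms adenosine, had 637, 394 and 432 after siASAP1 and 112, 104 and 116 after siCtrl (Log2 FC 2.10 ± 0.39 (SE), limma, adjusted p = 0.166). All of these calls were kept in each leave-one-out fit.

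The probes that fell with the smallest p were led by LRRN1 and CDON. LRRN1, a leucine-rich repeat protein of the neuronal surface, had 91.6, 39.6 and 27.4 after siASAP1 and 523, 658 and 567 after siCtrl (Log2 FC -3.61 ± 0.50 (SE), limma, adjusted p = 0.0543). CDON, a cell-surface co-receptor of hedgehog signalling, had 124, 100.1 and 68.4 after siASAP1 and 513, 1328 and 964 after siCtrl (Log2 FC -3.18 ± 0.46 (SE), limma, adjusted p = 0.0543). CRISPLD2, a secreted glycoprotein, had 141, 235 and 242 after siASAP1 and 1708, 1251 and 859 after siCtrl (Log2 FC -2.61 ± 0.41 (SE), limma, adjusted p = 0.0754). In each, the highest siASAP1 value was under the lowest siCtrl value by 3-fold or more. FHL1, a LIM-domain protein of muscle, had 101, 62.3 and 43.8 after siASAP1 and 625, 376 and 365 after siCtrl (Log2 FC -2.74 ± 0.46 (SE), limma, adjusted p = 0.119). MAGED1 had 91.6, 139 and 122 after siASAP1 and 542, 492 and 461 after siCtrl (Log2 FC -2.09 ± 0.39 (SE), limma, adjusted p = 0.166). OLFML2B, an extracellular olfactomedin-domain protein, had 38.2, 65.1 and 40.2 after siASAP1 and 359, 214 and 181 after siCtrl (Log2 FC -2.35 ± 0.47 (SE), limma, adjusted p = 0.201). The leading probes were chosen for not overlapping between groups. The remaining leading falls were P4HA1, MRPS27 of the mitochondrial ribosome (Log2 FC -2.08), ERGIC1 of the ER-Golgi intermediate compartment (-1.81), SNAI2, PLXDC2 (-1.57) and ANXA1. ANXA1, an abundant phospholipid-binding protein with anti-inflammatory activity, had 16134, 20546 and 17944 after siASAP1 and 79387, 35593 and 46399.8 after siCtrl (Log2 FC -1.49 ± 0.34 (SE), limma, adjusted p = 0.311). Its siASAP1 libraries were alike, and siCtrl replicate 1 held the highest count.

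Over the 6 libraries, sterol synthesis was the metabolic list with the largest share of falls. Of 29 probes for 29 genes, 9 fell and 0 rose (31.0%, against 3.69% of all probes), 21 had a Log2 FC below 0, and the median was -0.79. IDI1, the isopentenyl diphosphate isomerase, had 660.4, 295 and 271 after siASAP1 and 1243, 947 and 838 after siCtrl (Log2 FC -1.41 ± 0.43 (SE), limma, adjusted p = 0.526). Every siASAP1 library of IDI1 was below every siCtrl library, and replicate 1 was the least changed. Among the others were MSMO1 (-3.08), INSIG2 (-1.72), SC5D (-1.82), SQLE (-1.60), EBP (-1.46), ACAT2 (-1.46) and SREBF2 (-1.33), the last encoding the transcription factor that drives the pathway. The groups of MSMO1, INSIG2, SQLE and ACAT2 overlapped, with siASAP1 replicate 1 inside the siCtrl range in each. MSMO1 had 506, 30.2 and 15.5 after siASAP1 and 603, 529 and 492 after siCtrl. Relative to the siCtrl mean, the list's average log2 value was -0.37, -0.52 and -0.89 in siASAP1 replicates 1, 2 and 3. The number of falls was 3 without siASAP1 replicate 3 and 5 without siCtrl replicate 1. Without siASAP1 replicate 3, the 24 probes for beta-oxidation and ketone metabolism also had 3 falls, a larger share. Of the 9 genes, 6 had a promoter in the table, and a sterol-response-like motif, TCACNCCAC or its reverse complement GTGGNGTGA, was found in 1 of them, that of SREBF2 itself, compared with 310 of all 35116 promoters (0.883%). It is printed with the motif in capitals, to show the only match among the genes that fell in this list.
SREBF2 (chr22:41832955-41833104, plus strand): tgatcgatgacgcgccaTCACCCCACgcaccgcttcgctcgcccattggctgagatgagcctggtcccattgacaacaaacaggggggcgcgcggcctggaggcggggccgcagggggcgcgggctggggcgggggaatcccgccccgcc

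Several genes for matrix proteins fell, as did the EMT factors SNAI2 and TCF4, while mesenchymal markers themselves were divided. Of 29 probes for matrix glycoproteins and crosslinkers, 7 fell (24.1%) and 1 rose, with a median Log2 FC of -0.69. P4HA1, the prolyl hydroxylase that stabilises collagen, had 277, 206 and 159 after siASAP1 and 1213, 766 and 826 after siCtrl (Log2 FC -2.13 ± 0.39 (SE), limma, adjusted p = 0.166). EFEMP1 had 3164, 4252 and 2183 after siASAP1 and 12263, 7114 and 6909.7 after siCtrl (Log2 FC -1.45 ± 0.37 (SE), limma, adjusted p = 0.402). SPARC, a collagen-binding matricellular protein, had 558, 85.9 and 31.0 after siASAP1 and 777, 834 and 680.5 after siCtrl (Log2 FC -2.72). The counts of SPARC in siASAP1 replicate 1 were within reach of the siCtrl libraries, and those in replicates 2 and 3 were far lower. A second probe of SPARC was not called. CCDC80 (-1.16) and SRPX (-1.47) fell, as did LUM (-3.62) and MGP (-3.29), which passed the filter through the siCtrl libraries alone. THBS1, thrombospondin 1, rose, with 2531, 4312 and 5374 after siASAP1 and 1511, 1236 and 1419 after siCtrl (Log2 FC 1.49 ± 0.36 (SE), limma, adjusted p = 0.354). Collagen chains were split, with 3 of 16 probes risen and 3 fallen (18.75% each, against 3.28% and 3.69% of all probes). COL16A1, COL18A1 and COL6A1 rose (Log2 FC 1.51, 1.77 and 1.26). Both probes of COL3A1 (-1.64 and -1.40) and COL12A1 (-1.73) fell.

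SNAI2, the EMT factor Slug, fell at both of its probes. The probe with more reads had 643, 563 and 483 after siASAP1 and 1874, 1392 and 1754 after siCtrl (Log2 FC -1.57 ± 0.34 (SE), limma, adjusted p = 0.31), and the other had 70.2, 9.44 and 16.4 after siASAP1 and 125, 116 and 107 after siCtrl (Log2 FC -2.32 ± 0.70, SE). At both, every siASAP1 library was below every siCtrl library. TCF4 fell (-1.68), with siASAP1 replicate 1 inside the siCtrl range. Of the 8 probes for 6 EMT factors, 3 fell (37.5%, against 3.69% of all probes) and 0 rose. These falls were those of SNAI2, at both probes, and TCF4. TWIST1, at the probe with more reads (657, 877 and 732 after siASAP1 and 1064, 605 and 782 after siCtrl), and ZEB2 (636, 638 and 698 after siASAP1 and 847, 780.4 and 638 after siCtrl) had overlapping groups. Of 13 probes for mesenchymal markers, CD44 rose (1.16) and CAV1 and SPARC fell (-1.17 and -2.72), and the median was 0.64. VIM, the intermediate filament of mesenchymal cells, had 33617, 64528 and 87612 after siASAP1 and 27346, 36307 and 32649 after siCtrl (Log2 FC 0.85), under the fold limit. The summed normalised count of the mesenchymal list was between 77069 and 141875 after siASAP1 and between 78243 and 95920.0 after siCtrl. Epithelial markers stayed low. Only 2 of 18 epithelial probes, KRT8 and KRT18, were tested, 7 had no read in any library, and the sum was between 143 and 328 after siASAP1 and between 84.9 and 339 after siCtrl. CDH1, ESR1, PGR and KRT5 had 0 reads in the 6 libraries, and ERBB2 was between 26.4 and 80.3. Immune cell markers were low, with a summed count between 17.3 and 71.7 after siASAP1 and between 0 and 38.6 after siCtrl. Of their 14 probes 4 had no read and only that of ITGAM was tested, with 29.3, 52.9 and 15.5 after siASAP1 and 0, 15.1 and 22.4 after siCtrl, overlapping groups and no call (Log2 FC 2.05 ± 1.21, SE). PTPRC, the pan-leukocyte marker CD45, had at most 3 reads in a library. The part of these markers in the rises of inflammatory genes was not tested. Of 9 endothelial probes 0 were tested and 7 had no read.

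**Figure D4:**
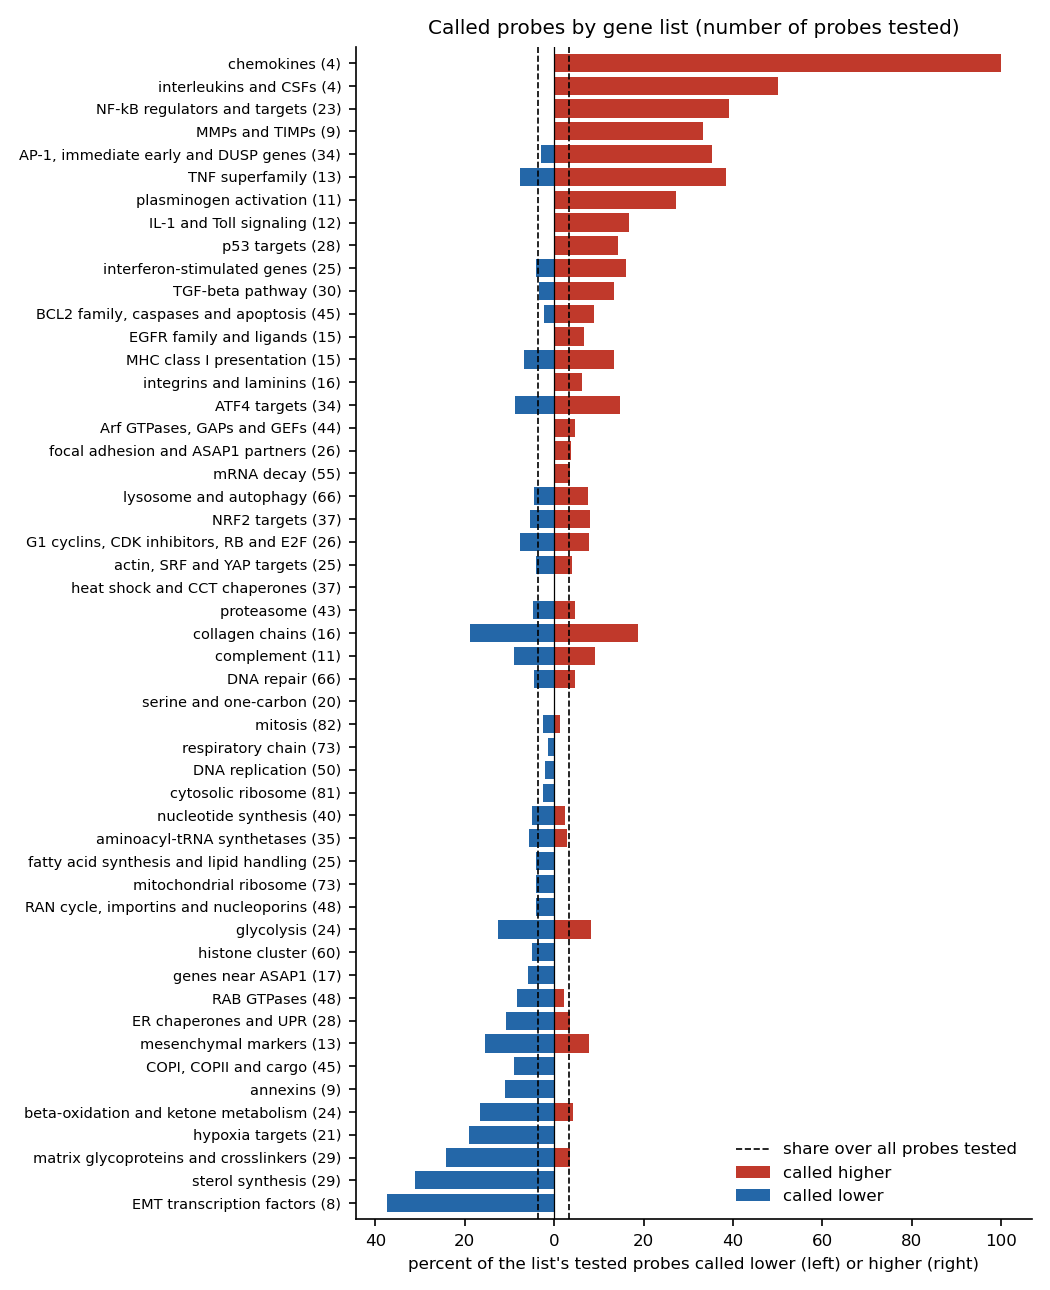
For each gene list with at least 4 tested probes (number in parentheses), the bars give the percent of its probes that rose (red, to the right) or fell (blue, to the left). The dashed lines mark the shares over all probes tested, 3.28% risen and 3.69% fallen. The lists of chemokines, interleukins and CSFs, NF-kB and the TNF superfamily extend furthest to the right and EMT factors, sterol synthesis and matrix glycoproteins furthest to the left. The falls of EMT factors are those of SNAI2, at both of its probes, and TCF4.

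Over the 6 libraries, many processes did not stand out from the background of all probes. Of 50 probes for DNA replication only MCM6, a subunit of the replicative helicase, fell, with 625, 453 and 389.6 after siASAP1 and 1303, 941 and 1063 after siCtrl (Log2 FC -1.19 ± 0.36 (SE), limma, adjusted p = 0.525). Of 82 mitosis probes 2 fell and 1 rose. Neither share exceeded that of all probes over the 6 libraries, but without siASAP1 replicate 1 17 of the 82 mitosis probes fell (20.7%, against 13.2% of all probes). The respiratory chain (1 of 73 fell), the cytosolic ribosome (2 of 81) and the mitochondrial ribosome (3 of 73) had no rises, with medians of -0.41, -0.26 and -0.18. In these lists siCtrl replicate 1 held the highest mean, 0.58, 0.63 and 0.45 above the siCtrl average on the log2 scale, and the part of that library in their medians was not tested. Heat shock and CCT chaperones (37 probes) and serine and one-carbon metabolism (20 probes) had 0 calls, and without siASAP1 replicate 1 7 of the 20 fell (35.0%). Around ASAP1 itself, 2 of 44 probes for Arf GTPases and their regulators rose, CYTH2 and ACAP2, and 1 of 26 for focal adhesion proteins and known ASAP1 partners, ACTN4. Without siASAP1 replicate 1, 6 of the 44 (13.6%) and 3 of the 26 (11.5%) rose, against 9.30% of all probes in that fit. With siASAP1 replicate 2 or 3 left out none did. Of the 17 probes of genes near ASAP1 on chromosome 8 only SQLE fell, and the median was -0.78. Relative to the siCtrl mean, these 17 averaged -0.06, -0.50 and -1.03 on the log2 scale in siASAP1 replicates 1, 2 and 3. Without replicate 1, 5 fell (29.4%, against 13.2% of all probes), and 0 fell without replicate 3. MYC had 1119, 1812 and 2074 after siASAP1 and 1430.0, 1094 and 868 after siCtrl (Log2 FC 0.54 ± 0.38, SE).

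Of the other genes that the study names, AIFM2, a ferroptosis suppressor and p53 target, rose, with 380.4, 729 and 829 after siASAP1 and 209.6, 147 and 227 after siCtrl (Log2 FC 1.67 ± 0.43 (SE), limma, adjusted p = 0.404). MAP3K11, a kinase upstream of JNK, rose from few reads (22.2, 23.6 and 119.5 after siASAP1 and 3.74, 4.40 and 4.21 after siCtrl). It passed the filter through the siASAP1 libraries alone, with most of its counts in replicate 3. The proteasome ATPase PSMC4 also rose from few reads (2.40). APEX1, an abasic-site endonuclease, fell (-1.14), as did the nuclear transport GTPase RAN (-1.08) and the pocket protein RBL2 (-1.70). IMPDH1 (-0.37), EGFR (0.18), IRF2BP2 (0.18) and CCT5 (0.11) were not called and their groups overlapped. EGFR, IRF2BP2 and CCT5 came from the tumour data and siRNA screens of the study. The others were picked by the study on these samples, so their directions are not independent evidence.

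Of 489 genes with more than 1 tested probe, all probes had a Log2 FC of 1 sign in 323 (66.1%), and 56 genes had a called probe. In 50 of the 56 all probes had a Log2 FC of 1 sign, in 0 were probes called in opposite directions, and in 9 at least 2 probes were called (6 up, 3 down). SNAI2, COL3A1, TNFRSF1B, TNFRSF10B, MAFF and PLAUR were among the 9, the second TNFRSF1B probe having passed the filter through the siASAP1 libraries alone.

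The size of the effect in BT549 was then compared with the mean effect in the other lines, Hs578T and SUM149PT, in a fit over all 18 libraries and 10475 probes. The difference had an adjusted limma p under 0.05 for 1 probe (0.00955%) and an unadjusted p under 0.05 for 544 (5.19%). That probe was the SNAI2 probe described above, whose effect was -1.57 ± 0.25 (SE) in BT549, with -0.07 for Hs578T and 1.48 for SUM149PT, a difference of -2.27 ± 0.30 (SE, limma, adjusted p = 0.0102). The adjusted p was 0.0860 without siCtrl replicate 3 of BT549. SNAI2 counts in Hs578T were 5200.01, 4842 and 4807 after siASAP1 and 4698, 6253 and 4786 after siCtrl. In SUM149PT they were 234, 237 and 244 after siASAP1 and 110.1, 75.6 and 73.5 after siCtrl. SNAI2 was thus lower in every BT549 siASAP1 library, overlapping in Hs578T and higher in every SUM149PT siASAP1 library. At the second SNAI2 probe the effects were -2.32, -0.06 and -0.33 (limma, difference, adjusted p = 0.892), so the probes did not give the same result in SUM149PT. The next probes were those of NR3C2, the mineralocorticoid receptor, and CRISPLD2 (both with adjusted p = 0.0758 by limma), PLPP3 and CDH13 (both with adjusted p = 0.252), and NR3C2 and CDH13 had few BT549 reads.

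The chemokine and NF-kB genes did not pass the test of a difference between lines. In Hs578T the Log2 FC of CXCL1 was 1.39, and SUM149PT gave 2.47, beside 2.66 in BT549. For CXCL8 these were 0.68, 3.91 and 3.10, and for BIRC3 0.38, 2.63 and 2.75. CXCL5 had 0 reads in the 6 Hs578T libraries and a normalised count of at most 1.82 in SUM149PT, so no fold change is given there. CD83 was measured in all lines, with 0.12 and -0.50, beside 1.73 (limma, difference, adjusted p = 0.522). CLDN1 had 0 reads in Hs578T, and in SUM149PT its Log2 FC was 0.59, beside 3.55. Of the sterol genes, SREBF2 had -1.52 and -1.37, beside -1.33. The others were less even. MSMO1 had -0.56 and 1.82, beside -3.08, INSIG2 -0.57 and 0.88, beside -1.72, IDI1 -0.67 and -0.18, beside -1.41, and EBP 0.48 and -1.57, beside -1.46 (limma, difference, adjusted p = 0.892 for each of these 4). With an adjusted p over 0.05 these data do not show that the lines respond alike.

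**Figure D5:**
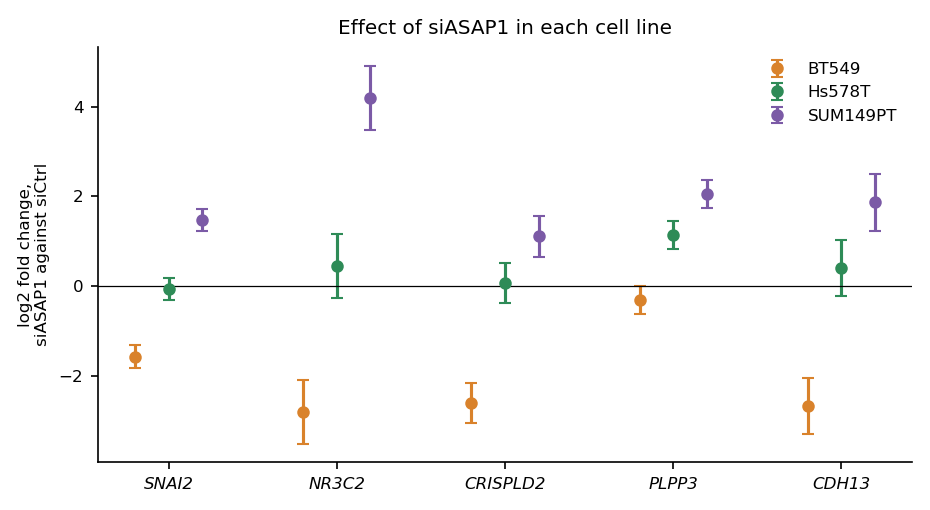
The Log2 FC of siASAP1 against siCtrl (points, with bars for ± SE from the fit over 18 libraries) is plotted for each cell line and for the 5 probes with the smallest p in the test of the difference between BT549 and the other lines. SNAI2 lies at -1.57 for BT549, -0.07 for Hs578T and 1.48 for SUM149PT, and was the probe with an adjusted p under 0.05.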

How the data were processed

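TempO-Seq libraries of siASAP1- and siCtrl-transfected BT549 cells were analysed (3 libraries each, 50 nM siRNA, 72 h), with those of Hs578T and SUM149PT for the test between lines. Per the submitters' processing notes, bcl2fastq, Bowtie and DESeq2 were used, and versions and genome build are not given in the sources used here. The authors divided probe counts by DESeq2 size factors, added 1 and deposited log2 values. Undoing this gave whole reads for 100% of values (tolerance 0.05 reads). The deposited log2 values were fitted in R 4.3.3 with limma 3.58.1 (lmFit, then eBayes with a trend), over probes with a mean normalised count of at least 10, with Benjamini-Hochberg adjustment over all of them. Fold changes of low counts are understated by the pseudocount of 1. The plan allowed for raw counts, but the values were on a log scale, so limma was used. The members, gene lists and tests were chosen with earlier results of these data known. Named were ASAP1, the 12 non-overlapping probes with the smallest p in each direction, up to 4 called members per list (2 abundant ones where none was called), genes named by the study, and the 5 leading probes of the test between lines. Other genes, among them the remaining called list members, NFKB1, NFKBIA, TNFAIP3, CXCL3, TWIST1, ZEB2 and VIM, were named after their values were seen. A few list members are not reported here. The fit over the BT549 libraries was checked on simulated reads, with a common dispersion and without the differences seen between replicates. The test between lines and the permutation tests were not simulated. Python 3.11.15 and matplotlib 3.10.9 drew the figures. Tried as alternatives were other scalings, filters and pseudocounts, voom weights, a replicate block, all 18 libraries in 1 fit, summed probes, other call limits and leaving out each library.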

Additional observations from a re-analysis of the deposited data

Results flagged for a closer look

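The effect of siASAP1 on the SNAI2 probe with more reads differed between cell lines in a test of the difference itself. The Log2 FC in BT549 minus the mean of Hs578T and SUM149PT was -2.27 ± 0.30 (SE, limma, adjusted p = 0.0102). Every siASAP1 library was below every siCtrl library in BT549 and above every siCtrl library in SUM149PT. The adjusted p was between 0.0209 and 0.0860 when each BT549 library was left out, and 0.0860 without siCtrl replicate 3. At the second SNAI2 probe the Log2 FC was -2.32 in BT549 and -0.33 in SUM149PT, and the difference had a limma adjusted p = 0.892. The cause of the difference was not tested.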

How the results depend on the processing

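With a minimum count of 50, 196 probes rose and 6 of the AP-1 and DUSP list. With an adjusted p under 0.05 as the limit, the counts were 0 for all probes in both directions and for the chemokine, NF-kB, AP-1, sterol and matrix lists. Leaving out each replicate, falls ranged from 199 to 1277 and rises from 135 to 899. The ranges for the lists were 4 chemokine rises in each fit, 7 to 10 NF-kB and 4 to 14 AP-1 rises, and 3 to 13 sterol and 5 to 10 matrix falls, and the Log2 FC of ASAP1 ranged from -0.95 to -0.41. Scaling by library totals moved the median Log2 FC to 0.06, with 357 rises and 302 falls. The cause of these changes was not tested, beside the fewer libraries or probes.

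The replicate numbers did not pair the libraries (correlations of deviations -0.19, -0.39 and 0.14 for numbers 1, 2 and 3). A replicate block gave 265 rises and 326 falls, and 0 adjusted calls for the difference between lines (SNAI2, limma, adjusted p = 0.803). That difference had 0 to 3 such probes without each BT549 library. The block moved no list count by over 1.5 times.

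Of 161 named probes, 2212 of 2549 comparisons with an alternative kept direction and call. The sign reversed in some of these for EGFR (range -0.13 to 0.36), ERBB2 (-0.58 to 0.20, with 0.11 without siCtrl replicate 3), IRF2BP2 (-0.21 to 0.57) and KRT8 (-0.58 to 0.78, with -0.19 without siASAP1 replicate 3), none of which was called over 6 libraries. Size factors ran from 0.801 to 1.59, so that a normalised count of 10 rests on about as many reads, and low probes are limited by counting error.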

Other observations

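Other groups in BT549 held smaller or mixed sets of calls. Of 28 probes for p53 targets 4 rose and 0 fell (14.3% risen, against 3.28% of all probes), both probes of TNFRSF10B included, and between 2 and 8 rose when each library was left out. Without siASAP1 replicate 1, 6 of the 28 fell (21.4%, against 13.2% of all probes). Among the 4 that rose was GADD45A, a stress-induced growth arrest gene, with 204, 295 and 283 after siASAP1 and 84.9, 56.0 and 77.9 after siCtrl (Log2 FC 1.83 ± 0.42 (SE), limma, adjusted p = 0.311). Of 30 for the TGF-beta pathway 4 rose (13.3%, and 2 to 5 with each library left out), namely INHBA (1.63), GDF15 (1.63), SKI (1.30) and SMAD7 (1.48), and ACVR1, an activin and BMP receptor, fell (-1.63). A second probe of GDF15 was not called (0.52). ATF4 targets were split, with 5 of 34 risen (14.7%, and 3 to 6 with each library left out), among them CEBPB (2.03), PPP1R15A (1.74), ATF5 (1.41) and SLC3A2 (1.33), and 3 fallen (8.82%, and 1 to 3 with each library left out), HMOX1 (-1.40), ASNS (-2.91, past the filter through the siCtrl libraries alone) and GARS (-1.27). HMOX1, heme oxygenase 1, had 199, 368 and 429 after siASAP1 and 897, 799.9 and 812 after siCtrl, with no overlap. Of 45 probes for COPI and COPII vesicle proteins and their cargo receptors, 4 fell and 0 rose (8.89%, against 3.69% of all probes, and 2 to 8 falls with each library left out), namely ERGIC1, KDELR3 (-1.16), SEC31A (-1.09) and TMED3 (-1.14).

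Glycolysis had 3 falls (12.5%) and 2 rises (8.33%) in 24 probes, with 0 of each without siASAP1 replicate 3. Over all probes 3.69% fell and 3.28% rose. PKM had 5840.0, 11579 and 17661 after siASAP1 and 5959.5, 4509 and 4297 after siCtrl (Log2 FC 1.12) and LDHA 5759, 3295 and 1067 after siASAP1 and 13302, 5351 and 6015 after siCtrl (-1.47), so that siASAP1 replicates 2 and 3 held more PKM and less LDHA than replicate 1. Of 21 hypoxia targets 4 fell (19.0%) and 0 rose, and 2 fell without siASAP1 replicate 3 or siCtrl replicate 1. The 4 were P4HA1, INSIG2, PDK1 (-2.12) and MXI1 (-1.11). Of 66 lysosome and autophagy probes 5 rose (7.58%), including CTSD (1.93) and ULK1 (2.99), which passed the filter through the siASAP1 libraries alone, and 3 fell (4.55%). The rises came to 1 without siASAP1 replicate 3 and 2 without siASAP1 replicate 2. Without siASAP1 replicate 1, 9 fell (13.6%), near the 13.2% of all probes in that fit. Over the 6 libraries the falls were ATP6V1D (-1.58), NEU1 (-1.47) and LAMP2 (-1.80). A second probe of NEU1 was not called (-0.23). LAMP2 had 13454, 3359 and 915 after siASAP1 and 21742, 7973 and 10145 after siCtrl, with siASAP1 replicate 1 within the siCtrl range and replicates 2 and 3 below it.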
